A study of Saccharomyces cerevisiae with 24 samples.

Results

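The genes of ergosterol synthesis and of sterol regulation in budding yeast were followed across 24 one-colour Agilent arrays. They were 31 listed genes, found on the array by standard symbol or open reading frame name, out of 6576 genes on the array. All 31 were found, each with 1 probe of 9 or 10 spots. All 31 passed the background filter that left 6210 genes for testing, and each was above background on all 24 arrays. The list held 9 genes from acetyl-CoA to farnesyl diphosphate (the mevalonate genes), 11 from squalene to zymosterol, 5 from zymosterol to ergosterol, 4 regulators and 2 sterol acyltransferases.

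Ergosterol is the main sterol of yeast membranes and has the place that cholesterol has in animal cells. Acetyl-CoA units are joined into mevalonate and isoprenoids, squalene is closed into lanosterol, and lanosterol is trimmed and rearranged through zymosterol to ergosterol, largely in the endoplasmic reticulum (ER). The transcription factors Upc2 and Ecm22 activate genes of the pathway when sterol is scarce, HMG-CoA reductase is its main control point, and surplus sterol is stored as esters.

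All strains were W303 yeast of mating type a that lacked the chromosomal IRE1 gene and expressed in its place either ire1ΔLD (ΔLD cells) or Ire1 (IRE1 cells). Ire1, a kinase and nuclease of the ER membrane, is the sensor that starts the unfolded protein response of yeast. Each kind of cell was sampled in 4 states with 3 arrays each, making 8 groups: with 1 mM choline overnight in a strain also labelled Δopi3, in that Δopi3 strain without choline, after 1 h in 2 mM dithiothreitol (DTT), and untreated. DTT breaks disulfide bonds, and its use here is called protein stress in the series. Opi3 is a methyltransferase that completes phosphatidylcholine from phosphatidylethanolamine. Its loss is called lipid stress in the series, and cells lacking it can make phosphatidylcholine from added choline. The labels do not say whether the arrays of a group came from separate cultures or how many clones of a strain were used, so the p-values measure the spread between these arrays.

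Across the 24 arrays the 75th percentile of spot intensity ranged from 6951 to 15890, and 90.6% to 95.8% of spots were well above background. The mating type a genes STE2, MFA1 and BAR1 were above background on 24 of 24 arrays, and the mating type α genes STE3 and MF(ALPHA)1 on 24 and 12. OPI3 signal was found on 5 of the 12 arrays labelled Δopi3. It read 31% of its mean untreated level on replicate 3 of Δopi3 IRE1 cells, 23.3% on replicate 3 of Δopi3 ΔLD cells and 11.4% on replicate 3 of Δopi3 IRE1 cells with choline. It read 1.53% and 0.752% on replicate 2 of Δopi3 ΔLD and IRE1 cells without choline. INO1, an inositol synthesis gene, stood at 3350% to 7250% of its untreated level on all 6 arrays labelled Δopi3 without choline and at 28.7% to 69.8% on the 6 with choline. Results from these groups are therefore those of the arrays as labelled, and counts without the 3 or the 5 arrays that carried OPI3 signal are given beside them. The IRE1 probe read −0.20 to 0.69 on the 12 ΔLD arrays and −2.59 to −1.57 on the 12 IRE1 arrays. ΔLD and IRE1 cells thus differed in IRE1 probe signal as well as in the form of Ire1, and the 2 cannot be told apart here.

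Every value below is a log2 signal relative to the 75th percentile of its array, or a difference of such values on the log2 scale. It shows a gene against the bulk of the other genes and not an amount per cell. Probes differ in brightness, so no level is compared between genes. A member was called when its adjusted p from limma (Benjamini-Hochberg over 6210 genes) was under 0.05. Members given with a change under 1.5-fold, other than HMG1, HMG2, ERG11, UPC2 and ECM22, were picked after their values were seen. The heat map of the 31 genes shows the 6 effects by role.

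**Figure D1:**
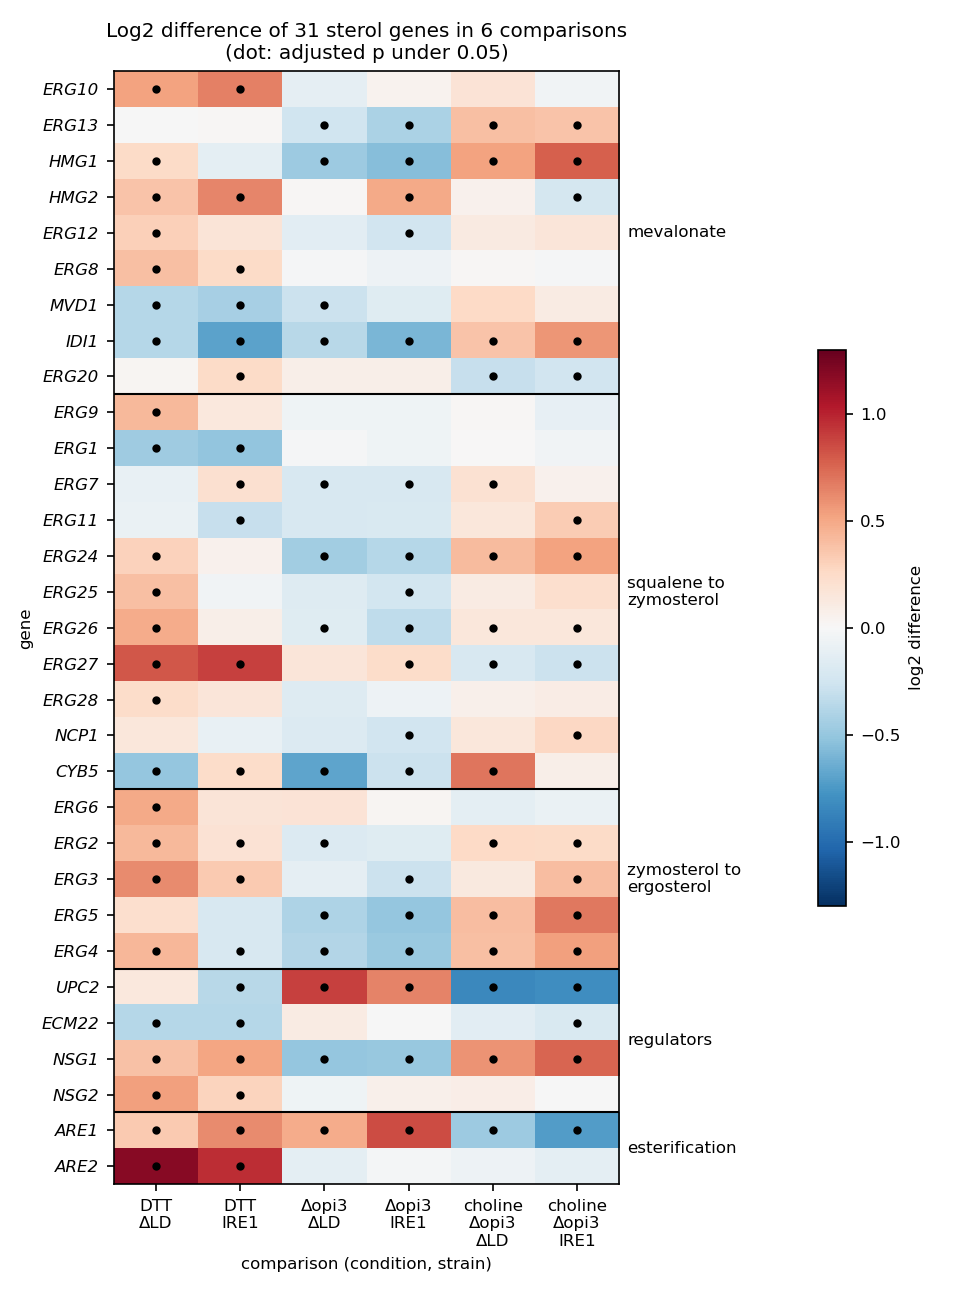
Log2 differences of the 31 sterol genes (rows, grouped by role) in 6 comparisons (columns): DTT against untreated, Δopi3 against untreated and choline against no choline in Δopi3 cells, each for ΔLD and IRE1 cells. Red is higher and blue is lower in the treated or mutant cells, and a dot marks an adjusted p under 0.05. Dots in the DTT columns stand mostly on red (19 of 24 in ΔLD and 13 of 20 in IRE1 cells) and those in the Δopi3 columns mostly on blue (12 of 14 and 14 of 18). Of all genes, 38.1% and 28.3% were higher and lower with DTT in ΔLD cells and 39.4% and 30.1% in IRE1 cells. For Δopi3 the shares were 29.2% and 27.3%, and 32.2% and 35.1%. These shares are of tested genes, while the dots are counted out of called members. Out of all called genes, 2368 of 4124 were higher with DTT in ΔLD cells and 2444 of 4316 in IRE1 cells. For Δopi3, 1696 of 3508 called genes were lower in ΔLD cells and 2180 of 4177 in IRE1 cells. With E1A scaling the blue dots of the DTT column in IRE1 cells turn positive. For Δopi3 that scaling gives 1 higher and 1 lower in ΔLD cells and 3 and 0 in IRE1 cells. Quantile normalization gives 6 and 8, and 6 and 10.

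DTT raised both sterol acyltransferase genes and ERG27 in both kinds of cell and lowered IDI1, ERG1, MVD1 and ECM22, although these 4 were above 0 in IRE1 cells when arrays were scaled to the E1A control probes. In ΔLD cells 19 of 31 members were higher with DTT and 5 lower, which is 61.3% and 16.1% of them, against 38.1% and 28.3% of all genes. In IRE1 cells 13 were higher and 7 lower, which is 41.9% and 22.6%, against 39.4% and 30.1% of all genes. The rises in IRE1 cells were thus near the share of all genes. The members' median was 0.31 in ΔLD cells and 0.15 in IRE1 cells, beside 0.08 and 0.07 over all genes. Quantile normalization gave 23 higher and 5 lower in ΔLD cells and 18 higher and 5 lower in IRE1 cells. The count in IRE1 cells was 12 without replicate 2. Scaling to the E1A control probes gave 19 higher and 0 lower in ΔLD cells and 28 higher and 0 lower in IRE1 cells. It shifted the median of all genes itself up by 0.35 and 0.89.

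Among the members, ARE2 had the largest DTT change in either kind of cell. It encodes the acyl-CoA:sterol acyltransferase that makes most sterol esters in aerobic yeast. ARE2 read −1.20, −1.14 and −0.97 in ΔLD cells with DTT, against −2.22, −2.27 and −2.36 in untreated ΔLD cells. In IRE1 cells ARE2 read −1.12, −1.31 and −1.05 with DTT, against −2.20, −2.09 and −2.06 untreated. All DTT arrays lay above all untreated arrays in both kinds of cell. ARE2 was higher by 1.18 in ΔLD cells (2.27-fold, SE 0.09, limma adjusted p 3.34e-09) and by 0.96 in IRE1 cells (1.94-fold, adjusted p 2.77e-08, SE 0.09), and the ΔLD value was the only difference over 2-fold among the 31 members in the 15 comparisons and interactions. Its relative ARE1, the other sterol acyltransferase gene, was higher by 0.34 in ΔLD cells and by 0.61 in IRE1 cells (1.53-fold, adjusted p 8.48e-07, SE 0.08).

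Among the mevalonate genes, 5 of 9 were higher and 2 lower with DTT in ΔLD cells, and 4 were higher and 2 lower in IRE1 cells. Of all genes, 38.1% were higher and 28.3% lower in ΔLD cells, and 39.4% and 30.1% in IRE1 cells. With the slide as a block ERG12 was also called higher in IRE1 cells (adjusted p 0.0205). ERG10, the acetoacetyl-CoA thiolase of the first step, was higher by 0.52 in ΔLD cells and by 0.65 in IRE1 cells (1.57-fold, adjusted p 1.81e-06, SE 0.08). HMG2 encodes the HMG-CoA reductase isozyme whose protein is degraded under sterol feedback. It read 0.45, 0.68 and 0.64 in ΔLD cells with DTT, against 0.29, 0.25 and 0.12 untreated. In IRE1 cells HMG2 read 0.61, 0.74 and 0.86 with DTT, against −0.10, 0.16 and 0.25 untreated. The groups did not overlap in either kind of cell, and HMG2 was higher by 0.37 in ΔLD cells (adjusted p 0.00227, SE 0.10, and 0.0664 without replicate 2) and by 0.63 in IRE1 cells (1.55-fold, adjusted p 1.03e-05, SE 0.10).

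HMG1, the stable reductase isozyme, differed by 0.25 in ΔLD cells (adjusted p 0.0451, SE 0.10, called) and by −0.13 in IRE1 cells (SE 0.10, 95% interval −0.35 to 0.09, adjusted p 0.288). In ΔLD cells the HMG1 call was lost in 6 of 9 leave-outs, namely without replicate 2, without replicate 3, and without DTT replicate 2 or 3 or untreated replicate 1 or 3 alone, with an adjusted p up to 0.390. ERG8, a kinase of the mevalonate steps, was higher by 0.39 in ΔLD cells and 0.25 in IRE1 cells. IDI1, the isomerase that makes the reactive isoprenoid unit, read 1.40, 1.36 and 1.33 in ΔLD cells with DTT, against 1.68, 1.79 and 1.72 untreated. In IRE1 cells IDI1 read 1.16, 1.07 and 1.09 with DTT, against 1.92, 1.81 and 1.68 untreated. Every DTT array lay below every untreated array. IDI1 was lower, at −0.37 in ΔLD cells and at −0.70 in IRE1 cells (1.62-fold, adjusted p 1.88e-07, SE 0.08), but 0.19 higher in IRE1 cells under scaling to the E1A probes, where the median of all genes moved by 0.89.

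Between squalene and zymosterol, 6 of 11 genes were higher and 2 lower with DTT in ΔLD cells, and 3 were higher and 2 lower in IRE1 cells. The shares of all genes were 38.1% and 28.3% in ΔLD cells and 39.4% and 30.1% in IRE1 cells. ERG27, the sterol keto reductase of the complex that removes methyl groups, read 2.87, 2.78 and 2.69 in ΔLD cells with DTT, against 1.94, 2.07 and 1.92 untreated. In IRE1 cells ERG27 read 2.93, 2.91 and 2.87 with DTT, against 2.01, 2.07 and 1.95 untreated. The groups lay far apart. ERG27 was higher by 0.81 in ΔLD cells (1.75-fold, adjusted p 4.54e-08, SE 0.08) and by 0.89 in IRE1 cells (1.86-fold, adjusted p 7.36e-09). ERG1, the squalene epoxidase, was lower, at −0.46 in ΔLD cells and at −0.52 in IRE1 cells, the second of which was 0.37 with E1A scaling. ERG9, the squalene synthase at the branch point to sterols, was higher by 0.42 in ΔLD cells and differed by 0.13 in IRE1 cells. ERG7, the lanosterol synthase, differed by −0.10 in ΔLD cells and was higher by 0.21 in IRE1 cells. ERG11, the lanosterol demethylase that azole drugs inhibit, differed by −0.09 in ΔLD cells (SE 0.11, 95% interval −0.31 to 0.13, adjusted p 0.473) and was lower in IRE1 cells, at −0.30 (adjusted p 0.0179, SE 0.11). The direction of ERG11 depended on the scaling. It was 0.39 in ΔLD cells and 0.14 in IRE1 cells after quantile normalization and 0.27 and 0.59 with E1A scaling, and the call in IRE1 cells was lost in 5 of 9 leave-outs, namely without replicate 2 and without DTT replicate 1 or 2 or untreated replicate 2 or 3 alone.

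The 5 genes from zymosterol to ergosterol had 4 rises and 0 falls with DTT in ΔLD cells, and 2 rises and 1 fall in IRE1 cells. Of all genes, 38.1% rose and 28.3% fell in ΔLD cells. In IRE1 cells 39.4% rose, which the 2 of 5 are near, and 30.1% fell. With the slide as a block ERG6 was also called higher in IRE1 cells (adjusted p 0.0339). ERG3, a sterol desaturase, was higher by 0.62 in ΔLD cells (1.54-fold, adjusted p 5.63e-06, SE 0.09) and by 0.34 in IRE1 cells. ERG6, the methyltransferase that gives ergosterol a side chain group cholesterol lacks, was higher by 0.49 in ΔLD cells and differed by 0.17 in IRE1 cells. ERG2, the sterol isomerase, was higher by 0.42 in ΔLD cells and by 0.19 in IRE1 cells. Among the regulators, ECM22 was lower, at −0.37 in ΔLD cells (adjusted p 4.74e-05, SE 0.06) and at −0.37 in IRE1 cells (adjusted p 3.55e-05, SE 0.06). UPC2 differed by 0.13 in ΔLD cells (SE 0.12, 95% interval −0.11 to 0.38, adjusted p 0.317, and −0.08 after quantile normalization) and was lower in IRE1 cells, at −0.36 (adjusted p 0.0105, SE 0.12). With E1A scaling UPC2 and ECM22 were instead 0.53 and 0.52 higher in IRE1 cells. The UPC2 call in IRE1 cells was lost without replicate 1 and without replicate 2, with an adjusted p up to 0.111. NSG1 and NSG2 encode membrane proteins related to mammalian Insig, and Nsg1 stabilises Hmg2. NSG1 was higher by 0.38 in ΔLD cells and 0.51 in IRE1 cells, and NSG2 by 0.53 and 0.29.

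In cells labelled Δopi3, 0 of the 25 biosynthetic genes were called higher than in untreated cells and 11 lower in ΔLD cells. In IRE1 cells 2 were higher and 13 lower. With the slide as a block ERG6 (0.18, adjusted p 0.0298) and ERG27 (0.16, adjusted p 0.0148) were also called higher in ΔLD cells. ERG27 was also called there without the 3 arrays with the most OPI3 signal (0.22, adjusted p 0.0117). UPC2 and ARE1 were higher in both kinds of cell and HMG2 in IRE1 cells. In Δopi3 ΔLD cells 2 of 31 members were higher and 12 lower, which is 6.45% and 38.7%, against 29.2% and 27.3% of all genes. In Δopi3 IRE1 cells 4 were higher and 14 lower, which is 12.9% and 45.2%, against 32.2% and 35.1% of all genes. The members' median was −0.15 in ΔLD cells and −0.16 in IRE1 cells, beside 0.00 and −0.02 over all genes. Without the 3 arrays with the most OPI3 signal the counts were 3 higher and 9 lower in ΔLD cells and 4 higher and 15 lower in IRE1 cells. Without all 5 arrays that carried OPI3 signal they were 3 and 10 in ΔLD cells and 5 and 13 in IRE1 cells. Without replicate 2 the members called were 8 in ΔLD cells and 11 in IRE1 cells, and without replicate 1 they were 9 in ΔLD cells. With the slide as a block the counts were 4 higher and 14 lower in ΔLD cells and 4 and 16 in IRE1 cells. The split was less one-sided after quantile normalization, with 6 higher and 8 lower in ΔLD cells and 6 higher and 10 lower in IRE1 cells. With E1A scaling, 1 member was higher and 1 lower in ΔLD cells and 3 were higher and 0 lower in IRE1 cells. None of the Δopi3 falls given below for IRE1 cells was thus called under that scaling, and at most 1 of those for ΔLD cells.

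Among the mevalonate genes, 0 of 9 were higher and 4 lower in Δopi3 ΔLD cells, and 1 was higher and 4 lower in Δopi3 IRE1 cells. The shares of all genes were 29.2% and 27.3% in ΔLD cells and 32.2% and 35.1% in IRE1 cells. IDI1 read 1.29, 1.36 and 1.45 in Δopi3 ΔLD cells, against 1.68, 1.79 and 1.72 in untreated ΔLD cells. In Δopi3 IRE1 cells IDI1 read 1.06, 1.21 and 1.37, against 1.92, 1.81 and 1.68 in untreated IRE1 cells. All Δopi3 arrays were below all untreated arrays, with replicate 3, which carried OPI3 signal, nearest to untreated in both kinds of cell. IDI1 was lower, at −0.36 in ΔLD cells and at −0.59 in IRE1 cells (1.51-fold, adjusted p 2.0e-06, SE 0.08). ERG13, the HMG-CoA synthase, was lower, at −0.26 in ΔLD cells and −0.41 in IRE1 cells.

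HMG1 read 0.80, 0.94 and 0.89 in Δopi3 ΔLD cells, against 1.33, 1.46 and 1.26 in untreated ΔLD cells. In Δopi3 IRE1 cells HMG1 read 0.48, 0.67 and 0.76, against 0.98, 1.34 and 1.26 untreated. The groups did not overlap. HMG1 was lower, at −0.48 in ΔLD cells (adjusted p 0.000881, SE 0.10) and at −0.56 in IRE1 cells (adjusted p 0.00013, SE 0.10). HMG2, the other reductase gene, moved the opposite way in Δopi3 IRE1 cells, where it read 0.66, 0.69 and 0.43, against −0.10, 0.16 and 0.25 untreated. It was higher there by 0.49 (adjusted p 0.000186, SE 0.10) and differed by 0.01 in Δopi3 ΔLD cells (SE 0.10, 95% interval −0.18 to 0.21, adjusted p 0.906). Without the 3 arrays with the most OPI3 signal these values were 0.57 in IRE1 cells and 0.06 in ΔLD cells.

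From squalene to zymosterol, 0 of 11 genes were higher and 4 lower in Δopi3 ΔLD cells. In Δopi3 IRE1 cells 1 was higher (ERG27, by 0.24) and 6 lower. With the slide as a block the counts were 1 and 6 in ΔLD cells and 1 and 7 in IRE1 cells. Of all genes, 29.2% were higher and 27.3% lower in ΔLD cells, and 32.2% and 35.1% in IRE1 cells. ERG24, a sterol reductase, read 0.34, 0.61 and 0.54 in Δopi3 ΔLD cells, against 1.05, 1.01 and 0.80 untreated. It read 0.40, 0.69 and 0.57 in Δopi3 IRE1 cells, against 0.79, 1.06 and 0.92 untreated. The groups did not overlap, and ERG24 was lower, at −0.45 in ΔLD cells and −0.37 in IRE1 cells. ERG11 differed by −0.21 in ΔLD cells (adjusted p 0.105, SE 0.11) and by −0.20 in IRE1 cells (adjusted p 0.109, SE 0.11), neither called. With the slide as a block both were called lower (adjusted p 0.0183 and 0.0199). ERG11 was 0.10 and 0.13 higher after quantile normalization. From zymosterol to ergosterol, 0 of 5 genes were higher and 3 lower in each kind of cell, against the same shares of all genes. With the slide as a block ERG6 was also called higher in ΔLD cells (adjusted p 0.0298) and ERG2 lower in IRE1 cells (adjusted p 0.0468). Lower in both was ERG5, the desaturase of the sterol side chain, at −0.40 in ΔLD cells and −0.50 in IRE1 cells. So was ERG4, the last reductase, at −0.39 and −0.48. NCP1, the reductase that passes electrons to Erg11, was lower in IRE1 cells at −0.25 and differed by −0.18 in ΔLD cells. With the slide as a block it was called lower in ΔLD cells too (adjusted p 0.0397).

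UPC2, the sterol-responsive activator, read −1.88, −2.22 and −1.97 in Δopi3 ΔLD cells, against −2.89, −2.96 and −2.88 in untreated ΔLD cells. In Δopi3 IRE1 cells UPC2 read −2.25, −2.26 and −1.72, against −2.68, −2.73 and −2.77 untreated. All Δopi3 arrays lay above all untreated ones, and the highest of the IRE1 arrays was replicate 3, which carried the most OPI3 signal. UPC2 was higher by 0.89 in ΔLD cells (1.85-fold, adjusted p 4.33e-06, SE 0.12) and by 0.65 in IRE1 cells (1.57-fold, adjusted p 8.2e-05, SE 0.12). Without the 3 arrays with the most OPI3 signal the values were 0.86 and 0.47, with adjusted p 5.15e-07 and 0.000138. ECM22, its paralog, differed by 0.10 in ΔLD cells (adjusted p 0.164, SE 0.06) and by −0.01 in IRE1 cells (SE 0.06, 95% interval −0.14 to 0.12, adjusted p 0.92).

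NSG1 read −0.79, −0.46 and −0.33 in Δopi3 ΔLD cells, against 0.02, 0.03 and −0.12 untreated. NSG1 read −0.83, −0.53 and −0.34 in Δopi3 IRE1 cells, against −0.08, 0.00 and −0.13 untreated. It was lower, at −0.50 in both kinds of cell, with replicate 3 nearest to untreated, and at −0.60 in ΔLD cells and −0.61 in IRE1 cells without the 3 arrays. NSG2 was not called in either kind of cell. ARE1 read −0.09, −0.15 and −0.29 in Δopi3 ΔLD cells, against −0.66, −0.66 and −0.66 untreated. In Δopi3 IRE1 cells ARE1 read 0.36, 0.29 and 0.17, against −0.71, −0.54 and −0.48 untreated. The groups were well apart, and ARE1 was higher by 0.48 in ΔLD cells and by 0.85 in IRE1 cells (1.80-fold, adjusted p 1.44e-08, SE 0.08). ARE2 was not called in either kind of cell, at −0.12 in ΔLD cells and −0.03 in IRE1 cells.

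**Figure D2:**
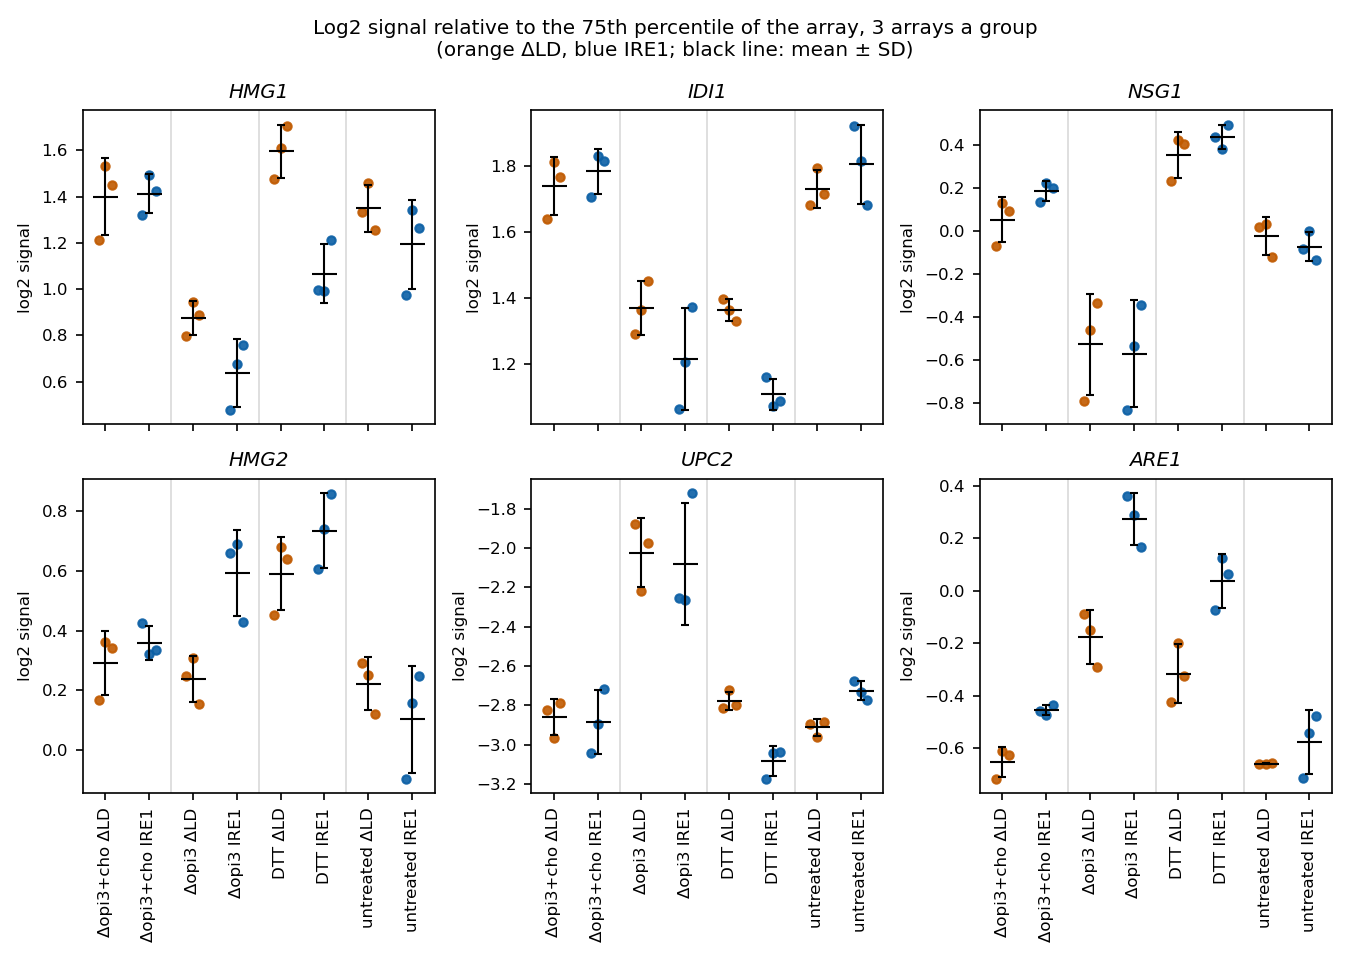
Log2 signal relative to the array's 75th percentile (vertical axis, scaled for each gene) on each array, by group, with ΔLD cells in orange, IRE1 cells in blue and lines for the mean ± SD of 3 arrays. HMG1 and NSG1 are lowest in the Δopi3 groups without choline, where UPC2 is highest, ARE1 is highest in Δopi3 IRE1 cells, and IDI1 is low both in Δopi3 cells and with DTT.

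The Δopi3 cells grown with choline were next set against Δopi3 cells grown without it. These comparisons share the Δopi3 arrays with those above, on the opposite side of the difference, so changes of opposite sign are in part built in. The values are given beside each other and no relation between them is tested. In ΔLD cells 11 members were higher with choline and 4 lower, which is 35.5% and 12.9%, against 27.8% and 32.2% of all genes. In IRE1 cells 12 were higher and 6 lower, which is 38.7% and 19.4%, against 34.0% and 36.3% of all genes. The members' median was 0.12 in ΔLD cells and 0.09 in IRE1 cells, beside −0.03 and −0.02 over all genes. Without the 3 arrays with the most OPI3 signal the counts were 10 higher and 5 lower in ΔLD cells and 11 higher and 7 lower in IRE1 cells, and without all 5 they were 9 and 3 in ΔLD cells and 11 and 4 in IRE1 cells. In ΔLD cells 8 members were called without replicate 2. Quantile normalization gave 8 higher and 5 lower in ΔLD cells and 8 higher and 8 lower in IRE1 cells, and E1A scaling gave 3 higher and 1 lower and 8 higher and 1 lower.

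HMG1 read 1.21, 1.53 and 1.45 in Δopi3 ΔLD cells with choline and 1.32, 1.49 and 1.42 in Δopi3 IRE1 cells with choline, all above the Δopi3 arrays without choline given above. It was higher with choline by 0.53 in ΔLD cells (adjusted p 0.000353, SE 0.10) and by 0.78 in IRE1 cells (1.71-fold, adjusted p 3.35e-06, SE 0.10). HMG2 differed by 0.05 in ΔLD cells (SE 0.10, 95% interval −0.15 to 0.25, adjusted p 0.649) and was lower, at −0.23 in IRE1 cells (adjusted p 0.036, SE 0.10), a call lost without replicate 2 and without choline replicate 2 or 3 or no-choline replicate 1 or 2 alone, with an adjusted p up to 0.343. Of the mevalonate genes, 3 of 9 were higher and 1 lower in ΔLD cells, and 3 higher and 2 lower in IRE1 cells. All genes gave 27.8% higher and 32.2% lower in ΔLD cells and 34.0% and 36.3% in IRE1 cells, so the rises were near those shares. With the slide as a block ERG10 and MVD1 were also called in ΔLD cells (adjusted p 0.0163 and 0.0417), which gave 5 higher and 1 lower. In IRE1 cells ERG12 was added (adjusted p 0.0263), which gave 4 higher and 2 lower. The lower gene in both was ERG20, the farnesyl diphosphate synthase, at −0.30 in ΔLD cells and −0.25 in IRE1 cells.

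Of the genes from squalene to zymosterol, 4 of 11 were higher and 1 lower with choline in each kind of cell. The shares of all genes were 27.8% and 32.2% in ΔLD cells and 34.0% and 36.3% in IRE1 cells, where the rises were near that share. With the slide as a block ERG25 was also called higher in IRE1 cells (adjusted p 0.0124). ERG11 was higher by 0.33 in IRE1 cells (adjusted p 0.00933, SE 0.11, up to 0.0919 without replicate 2 or without no-choline replicate 1) and differed by 0.14 in ΔLD cells (adjusted p 0.252, SE 0.11), where it was −0.10 after quantile normalization. Of the genes from zymosterol to ergosterol, 3 of 5 were higher in ΔLD cells and 4 of 5 in IRE1 cells. There were 0 lower, against the same shares of all genes. ERG5 read 1.27, 1.17 and 1.02 in Δopi3 IRE1 cells with choline, against 0.41, 0.50 and 0.51 without. It was higher by 0.68 there (1.61-fold, adjusted p 1.32e-05, SE 0.10) and by 0.40 in ΔLD cells.

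UPC2 read −2.83, −2.96 and −2.79 in Δopi3 ΔLD cells with choline and −3.04, −2.90 and −2.72 in Δopi3 IRE1 cells with choline, all below the arrays without choline. It was lower, at −0.84 in ΔLD cells (1.78-fold, adjusted p 9.08e-06, SE 0.12) and at −0.81 in IRE1 cells (1.75-fold, adjusted p 7.31e-06, SE 0.12). ECM22 was lower, at −0.20 in IRE1 cells (adjusted p 0.009, SE 0.06) and differed by −0.14 in ΔLD cells (adjusted p 0.0661, SE 0.06, and 0.038 with the slide as a block). The call in IRE1 cells was lost without replicate 1 and without choline replicate 1, with an adjusted p up to 0.115. With E1A scaling both ECM22 values were above 0, at 0.03 in either kind of cell. NSG1 was higher with choline by 0.58 in ΔLD cells and by 0.76 in IRE1 cells (1.69-fold, adjusted p 8.2e-06, SE 0.11). ARE1 read −0.72, −0.61 and −0.63 in Δopi3 ΔLD cells with choline and −0.46, −0.47 and −0.44 in Δopi3 IRE1 cells with choline. ARE1 was lower, at −0.47 in ΔLD cells and at −0.73 in IRE1 cells (1.66-fold, adjusted p 1.04e-07, SE 0.08).

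With choline, the Δopi3 cells were then set against untreated cells without the Δopi3 label. In ΔLD cells 0 of 31 members were called by limma in either direction, against 0.0322% of all genes called higher and 0.483% lower. In IRE1 cells it was also 0 of 31, against 0.225% higher and 2.00% lower. At an unadjusted p under 0.05 there were 2 members in ΔLD cells and 6 in IRE1 cells. The differences ran from −0.22 to 0.12 in ΔLD cells and from −0.21 to 0.26 in IRE1 cells, with a median standard error of 0.09. Without the 3 arrays with the most OPI3 signal, ECM22 was lower in IRE1 cells at −0.26 (adjusted p 0.045).

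The ΔLD and IRE1 cells were compared in each state. They also differed in IRE1 probe signal, as given above, and its part in the differences between them was not tested. Untreated, 0 of 31 members were called, against 0.0483% of all genes called higher and 0.741% lower in ΔLD cells, and differences ran from −0.21 to 0.16, with 2 members at an unadjusted p under 0.05. In Δopi3 cells with choline it was also 0 of 31, against 1.64% higher and 1.5% lower, with differences from −0.21 to 0.16 and 2 members at an unadjusted p under 0.05. With DTT, 10 members were higher in ΔLD cells and 4 lower, which is 32.3% and 12.9%, against 7.47% and 13.2% of all genes. With the slide as a block these counts were 14 and 5. With E1A scaling 0 were higher and 1 lower. Leave-outs moved the number called most without replicate 2, to 2 members, without replicate 3, to 8, without replicate 2 of IRE1 cells with DTT, to 7, and without replicate 2 or 3 of ΔLD cells with DTT, to 9 each. In Δopi3 cells without choline, 0 were higher in ΔLD cells and 3 lower (9.68%), against 6.91% and 9.23% of all genes, and 1 was higher and 5 lower with the slide as a block. Without the 3 arrays with the most OPI3 signal 0 were higher and 5 lower, and without all 5 such arrays 1 was higher and 2 lower. Without replicate 2 there was 1 call, and without replicate 3 of Δopi3 IRE1 cells alone there were 7.

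**Figure D3:**
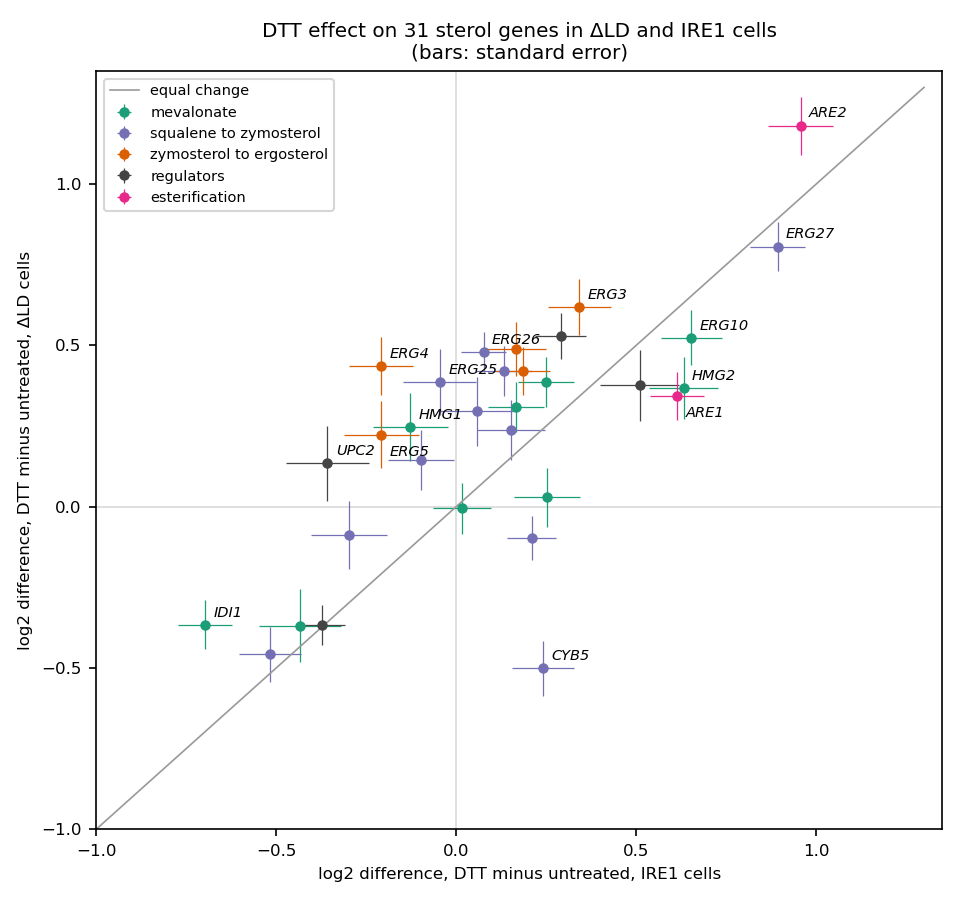
DTT effect on each of the 31 genes in IRE1 cells (horizontal axis) and in ΔLD cells (vertical axis), as log2 differences with standard errors, coloured by role. The line marks equal change, and CYB5 lies farthest below it and ERG4 farthest above it.

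With DTT, all 5 genes from zymosterol to ergosterol were higher in ΔLD than in IRE1 cells, against 7.47% of all genes. The differences were 0.22 to 0.60 on the scale of the 75th percentile. With E1A scaling 0 members were called higher there, and leave-outs lowered the number called, as given above. ERG4, which encodes the sterol reductase that completes ergosterol, read 2.58, 2.88 and 2.88 in ΔLD cells with DTT, against 2.11, 2.15 and 2.27 in IRE1 cells with DTT. The ΔLD arrays were all above the IRE1 arrays, and the difference was 0.60 (1.52-fold, adjusted p 4.23e-05, SE 0.09). The rest of the 10 higher genes were ERG2, ERG3, ERG5, ERG6, ERG25, ERG26, HMG1, IDI1 and NSG2, at 0.22 to 0.53. None of these 10 genes was called between the untreated strains, where 0.0483% of all genes were called higher. Of the 10, the main model called the DTT effect itself different between the strains only for ERG4 and ERG26.

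CYB5 went the other way from these genes. It encodes an electron carrier of the ER membrane that serves sterol synthesis. CYB5 read 0.01, 0.03 and 0.05 in ΔLD cells with DTT, against 1.16, 0.90 and 0.76 in IRE1 cells with DTT. Untreated, it read 0.42, 0.62 and 0.55 in ΔLD cells, against 0.73, 0.74 and 0.62 in IRE1 cells. CYB5 was lower in ΔLD cells with DTT at −0.91 (1.88-fold, adjusted p 1.67e-07, SE 0.09). ERG7, ECM22 and ARE1 were also lower in ΔLD cells with DTT, at −0.20 to −0.37. ECM22 differed by −0.20 with DTT and by −0.21 between the untreated strains, where it was not called (adjusted p 0.232). In Δopi3 cells without choline CYB5 read −0.28, −0.11 and −0.07 in ΔLD cells, against 0.37, 0.47 and 0.42 in IRE1 cells. It was lower in ΔLD cells there at −0.57, ARE1 at −0.45 and HMG2 at −0.36.

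**Figure D4:**
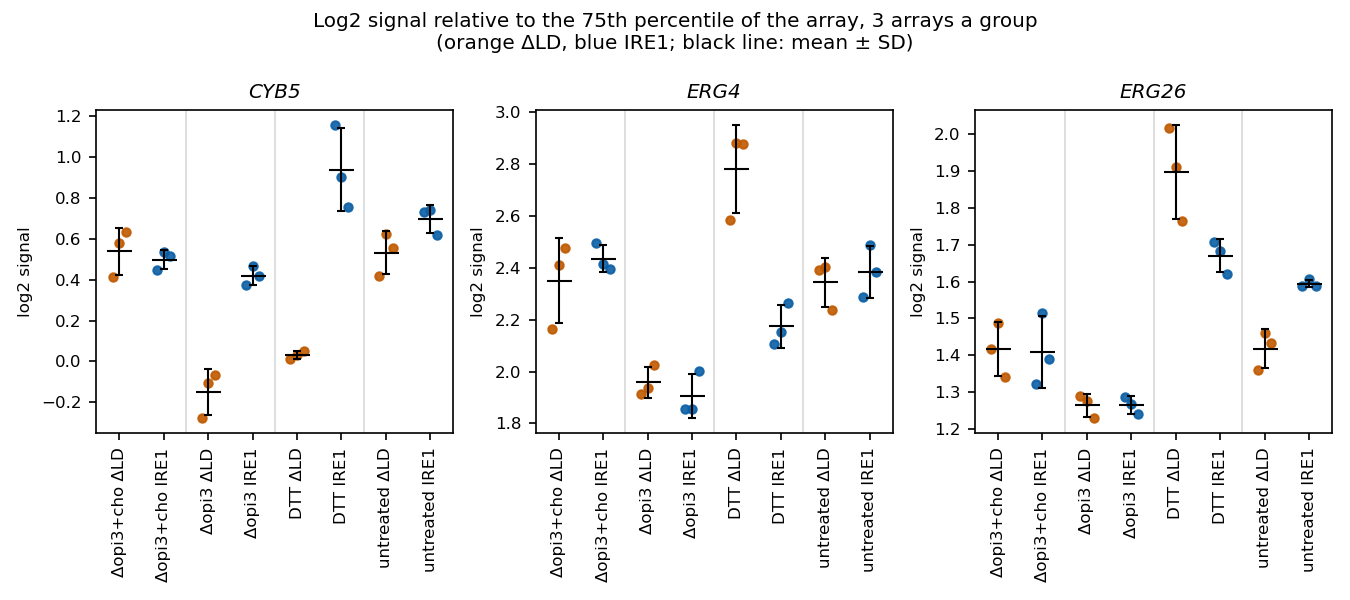
Log2 signal of CYB5, ERG4 and ERG26 relative to the array's 75th percentile (vertical axis, scaled for each gene) on each array, by group, with ΔLD cells in orange, IRE1 cells in blue and lines for the mean ± SD of 3 arrays. CYB5 is lower in ΔLD than in IRE1 cells with DTT and in Δopi3 cells without choline, and ERG4 and ERG26 are higher in ΔLD cells with DTT.

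The difference between the 2 strains in an effect was tested as an interaction. For DTT, 3 of 31 members were called, 2 with a higher effect in ΔLD cells and 1 with a lower one, which is 6.45% and 3.23%, against 1.72% and 6.59% of all genes. CYB5 fell with DTT in ΔLD cells, at −0.50, and was higher with DTT in IRE1 cells by 0.24, a difference of −0.74 (adjusted p 0.000382, SE 0.12). On the 3 slides that difference was −0.83, −0.76 and −0.64. ERG4 was higher with DTT in ΔLD cells by 0.44 and lower in IRE1 cells at −0.21 (0.13 with quantile normalization and 0.68 with E1A scaling), a difference of 0.65 (adjusted p 0.00189, SE 0.13). With E1A scaling the ERG4 difference was 0.11 (adjusted p 0.771) and that of CYB5 −1.28 (adjusted p 0.0104). ERG26, the sterol dehydrogenase of the complex that removes methyl groups, had effects of 0.48 in ΔLD cells and 0.08 in IRE1 cells, a difference of 0.40 (adjusted p 0.00535, SE 0.09) that was −0.13 with E1A scaling. With the slide as a block 6 members had a higher effect and 2 a lower one. The added members were ERG6, ERG25, HMG1 and UPC2 on the higher side and ERG7 on the lower side.

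Without replicate 2 none of the 3 was called, and without replicate 3 of untreated IRE1 cells or of IRE1 cells with DTT there were 5 and 6 calls. The call for CYB5 was lost without replicate 2 (adjusted p 0.0885), that for ERG4 without replicate 2 and without replicate 3 (up to 0.231), and that for ERG26 without replicate 1 and without replicate 2 (up to 0.179). For the Δopi3 effect, limma called 0 of 31 members as different between the strains, against 1.79% of all genes higher and 2.32% lower, with 4 members at an unadjusted p under 0.05. HMG2 had the largest such difference, −0.47 (adjusted p 0.0536, SE 0.14), and was at −0.52 (adjusted p 0.0356) without the 3 arrays with the most OPI3 signal. Without all 5 such arrays HMG2 was at −0.53 (adjusted p 0.151) and was not called, while UPC2 was at 0.56 (adjusted p 0.0286). Without replicate 3 of Δopi3 IRE1 cells, 5 members were called, without replicate 3 of untreated IRE1 cells 2, and without replicate 1, without replicate 3 or without replicate 1 of Δopi3 ΔLD cells 1 each. For choline, 1 member had a higher effect in ΔLD cells (3.23%) and 0 a lower one, against 4.78% and 2.21% of all genes. This was CYB5, which was higher with choline by 0.69 in ΔLD cells (1.62-fold, adjusted p 2.32e-06, SE 0.09) and differed by 0.08 in IRE1 cells. The difference was 0.61 (adjusted p 0.00355, SE 0.12), with adjusted p 0.245 without replicate 2, 0.0122 without the 3 arrays with the most OPI3 signal and 0.057 without all 5. Without replicate 3 of Δopi3 IRE1 cells 2 members were called. CYB5 was also lower in Δopi3 than in untreated ΔLD cells at −0.68 (1.61-fold, adjusted p 2.74e-06, SE 0.09).

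The pathway holds 4 pairs of related genes, and the change of 1 gene minus that of its relative on the same arrays does not depend on the scaling factor of an array. The 24 differences were computed over 6 effects, and with 3 arrays in each group the lowest p that an exact two-sided permutation test allows is 0.1. HMG2 minus HMG1 was 0.49 for Δopi3 in ΔLD cells and 1.05 in IRE1 cells, and the 3 slides gave 0.50, 0.57 and 0.40 in ΔLD cells and 1.25, 1.20 and 0.69 in IRE1 cells. All 3 slides had the same sign in both kinds of cell. With DTT it was 0.12 in ΔLD cells and 0.76 in IRE1 cells. The slides were at 0.02, 0.28 and 0.07 in ΔLD cells and 0.68, 0.94 and 0.66 in IRE1 cells.

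UPC2 minus ECM22 was 0.78 for Δopi3 in ΔLD cells and 0.66 in IRE1 cells, and −0.70 and −0.61 for choline. With DTT it was 0.50 in ΔLD cells and 0.01 in IRE1 cells, where the slides lay on both sides of 0. ARE1 minus ARE2 was below 0 with DTT, at −0.84 in ΔLD cells and −0.34 in IRE1 cells, and above 0 for Δopi3, at 0.60 and 0.88. With DTT both genes were called and ARE2 had the larger change, and for Δopi3 only ARE1 was called. Differences between the strains in these values were not tested. NSG1 minus NSG2 was −0.45 for Δopi3 in ΔLD cells and −0.56 in IRE1 cells, and 0.50 and 0.77 for choline.

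**Figure D5:**
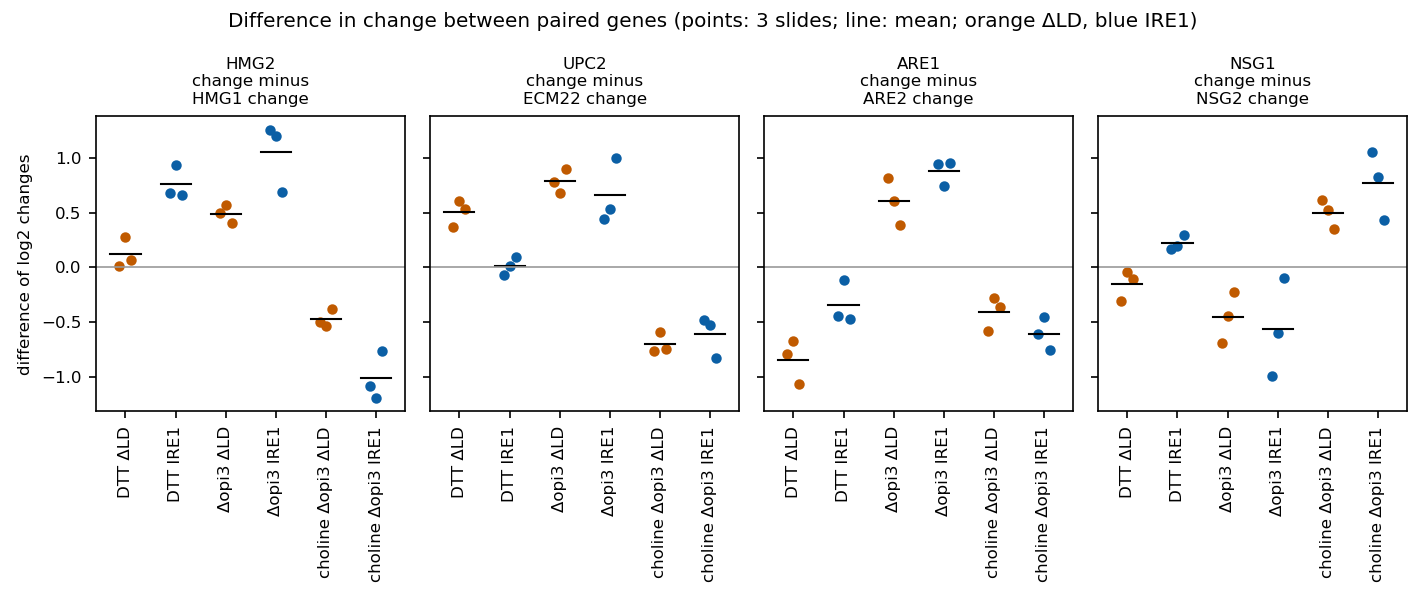
Change of the first gene minus change of its relative, on the log2 scale (vertical axis), for 4 gene pairs and 6 effects, with a point for each slide, a line for the mean, ΔLD cells in orange and IRE1 cells in blue. ARE1 minus ARE2 is below 0 with DTT and choline and above 0 for Δopi3, and HMG2 minus HMG1 is farther from 0 in IRE1 than in ΔLD cells for DTT, Δopi3 and choline alike.

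Of 49 other genes around the pathway, 48 were tested and DAN1 was not above background. Of 25 genes of sterol transport and ester turnover, 15 were higher and 1 lower with DTT in ΔLD cells, against 38.1% and 28.3% of all genes, and 17 and 3 in IRE1 cells, against 39.4% and 30.1%. For Δopi3 the counts were 7 higher and 4 lower in ΔLD cells, against 29.2% and 27.3% of all genes, and 11 and 3 in IRE1 cells, against 32.2% and 35.1%. For choline they were 3 higher and 8 lower in ΔLD cells, against 27.8% and 32.2% of all genes, and 3 and 11 in IRE1 cells, against 34.0% and 36.3%. These shares of all genes also stand behind the counts of the smaller lists that follow. PRY2, a secreted sterol-binding protein, was higher with DTT by 2.66 in ΔLD cells (6.34-fold, adjusted p 8.6e-12) and by 2.14 in IRE1 cells (4.42-fold, adjusted p 5.41e-11). It was higher for Δopi3 by 1.49 in ΔLD cells and 1.67 in IRE1 cells. HES1, an oxysterol-binding protein homologue, was higher with DTT by 1.69 in ΔLD cells, and lower with choline at −1.44 in ΔLD cells and −2.12 in IRE1 cells (4.34-fold, adjusted p 1.03e-11). ATF2, an acetyltransferase that acts on sterols before their export, was lower for Δopi3 in IRE1 cells at −0.69.

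Of the 5 tested anaerobic cell wall genes, which Upc2 is known to activate in part, 1 was higher and 4 lower with DTT in each kind of cell, against 38.1% and 28.3% of all genes in ΔLD cells and 39.4% and 30.1% in IRE1 cells. For Δopi3, 2 were higher and 2 lower in ΔLD cells and 1 and 3 in IRE1 cells, and for choline 1 and 1 in ΔLD cells and 3 and 1 in IRE1 cells. DAN4, a cell wall mannoprotein gene, was higher with DTT by 2.01 in IRE1 cells, and for Δopi3 by 1.42 in ΔLD cells and 2.16 in IRE1 cells (4.46-fold, adjusted p 7.33e-10). With choline it was lower, at −1.50 in ΔLD cells and −2.29 in IRE1 cells. TIR2 was lower with DTT in IRE1 cells at −0.84 (0.05 with E1A scaling), and TIR3 in ΔLD cells was lower for Δopi3 at −0.68 and higher with choline by 0.60.

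Of the 8 oxygen, haem and sterol response regulators, 0 were higher and 5 lower with DTT in ΔLD cells, against 38.1% and 28.3% of all genes, and 1 and 5 in IRE1 cells, against 39.4% and 30.1%. The counts for Δopi3 were 3 and 3 in ΔLD cells and 3 and 4 in IRE1 cells, and for choline 4 and 3 in each. MOT3, a repressor of hypoxic genes, was lower with DTT in IRE1 cells at −0.61 (0.28 with E1A scaling). SUT1, a transcription factor of sterol uptake, was lower for Δopi3 in IRE1 cells at −0.75 and higher with choline by 0.93, and ROX1, another hypoxic repressor, was higher with choline in IRE1 cells by 0.76. Of the 10 genes of isoprenoid branches, 3 were higher and 3 lower with DTT in ΔLD cells, near the 38.1% and 28.3% of all genes, and 5 and 0 in IRE1 cells, against 39.4% and 30.1%. For Δopi3 they were 3 and 4 in ΔLD cells and 3 and 5 in IRE1 cells, and for choline 4 and 3 in each. MOD5, which attaches an isoprenoid to transfer RNA, was lower with DTT in ΔLD cells at −0.63.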

How the data were processed

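Total RNA of 24 yeast samples was labelled with Cy3 and hybridised to 1 array each, per the labels. The authors deposited 1 scanner file of spot intensity values for each array, made by version 10.7.1.1 of Agilent Feature Extraction per the file headers, and its background-corrected processed signal was used. Groups came from titles, and each of the 3 slides held all 8 groups, each at the same position, so position and group cannot be told apart. Outlier spots (1.10% to 2.05% of an array) were left out, the log2 of the processed signal was taken, the array's 75th percentile was subtracted, and spots of a probe were averaged. Genes with over 50% of spots well above background on all arrays of a group were kept (6210 of 6576). One limma 3.58.1 model (R 4.3.3, statmod 1.5.0) with 8 group means gave two-sided tests for 12 comparisons and 3 interactions. It was tested on simulated data.

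A table of log2 values, also deposited by the authors, listed 0 of the 31 members and was not used. The members and lists were chosen with earlier results of these data known. By rule, values are printed for called members of at least 1.5-fold (up to 8 in a direction), called interactions, and HMG1, HMG2, ERG11, UPC2 and ECM22 in the 6 effects. Further members printed with smaller changes were picked after their values were seen. For other pathway genes the 2 largest called rises and falls of at least 1.5-fold are printed. The alternatives were quantile normalization, scaling to 7 E1A control probes, normexp (offset 50) on the median spot and background signals, no background filter, the slide as a block, fits of only the groups compared, and leave-outs. The replicate number is the slide, and same-numbered arrays deviated together (every correlation over 0.1) for DTT, choline and the 4 strain comparisons, but not for Δopi3 against untreated. Gene names came from the array and from a reference table by locus, and no coordinates are given because the array's genome build is not that of the table.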

Additional observations from a re-analysis of the deposited data

Results flagged for a closer look

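The effect of DTT differed between ΔLD and IRE1 cells for 3 of the 31 genes by the interaction term of the limma model. The difference, effect in ΔLD cells minus effect in IRE1 cells, was 0.65 for ERG4, 0.40 for ERG26 and −0.74 for CYB5. The effect of choline in Δopi3 cells differed between the strains for CYB5 by 0.61. All 3 slides had the same sign in each of these 4 differences. The 4 were picked because they were called on the same slides, so this agreement of sign adds no support. None of the 4 was called without replicate 2. With E1A scaling the DTT differences were 0.11 for ERG4 (adjusted p 0.771), −0.13 for ERG26 (adjusted p 0.732) and −1.28 for CYB5 (adjusted p 0.0104). The arrays labelled Δopi3, 5 of which carried OPI3 signal, enter the choline value. Without those 5 arrays it was 0.70 (adjusted p 0.057), and the part of the OPI3 signal in the result was not tested further.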

How the results depend on the processing

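The 51 named differences were recomputed under every alternative, giving 845 values, of which 762 kept their direction and side of the threshold, 46 lost the call, 9 gained it and 28 changed sign. Of the 51, 21 kept both throughout. The processing that moved most was scaling to the E1A probes, which shifted the median of all genes by 0.889 (IRE1 cells) and 0.355 (ΔLD cells) for DTT. It changed the sign of 12 of the 51 differences and took the call from 10 others. Under it the members called were 2 (ΔLD) and 3 (IRE1) for Δopi3, 4 and 9 for choline, 1 between strains with DTT, 0 between Δopi3 strains, and 1 and 0 for the DTT and choline interactions. The values that changed sign under it were, with DTT in IRE1 cells, IDI1 0.191, HMG1 0.762, ERG11 0.591, UPC2 0.531 and ECM22 0.517, and ERG11 0.266 with DTT in ΔLD cells. For Δopi3 they were ERG11 0.035 and ECM22 0.224 in IRE1 cells and HMG2 −0.005 in ΔLD cells, for choline ECM22 0.032 in ΔLD cells and 0.025 in IRE1 cells, and ERG26 −0.131 in the DTT interaction. Quantile normalization turned ERG11 (with DTT 0.390 in ΔLD and 0.142 in IRE1 cells, for Δopi3 0.104 and 0.126, for choline −0.096 in ΔLD cells) and UPC2 with DTT in ΔLD cells (−0.080), and gave 5 calls in the DTT and 3 in the Δopi3 interaction. ECM22 for Δopi3 in IRE1 cells was 0.004 with normexp and 0.001 without the 5 arrays with OPI3 signal, the second a setting chosen after seeing the data. With the slide as a replicate block, 6 members were called between Δopi3 strains, 1 for Δopi3 with choline against untreated in IRE1 cells (ECM22), 8 in the DTT and 2 in the Δopi3 interaction (HMG2 and ARE1), and ERG11 was called for Δopi3 in both kinds of cell. It ended no call among the named differences. Fits of the compared groups alone gave 9 between strains with DTT, 1 between Δopi3 strains and 7 in the DTT interaction. Leaving out the 3 arrays with the most OPI3 signal, also chosen after seeing the data, gave 5 calls between Δopi3 strains, 1 for Δopi3 with choline against untreated in IRE1 cells and 2 in the Δopi3 interaction, and leaving out 5 gave 1 in each of the last pair and 0 in the choline interaction. The cause of these changes was not tested. Over the leave-outs of a replicate or an array, the members called ranged from 18 to 24 (ΔLD) and 12 to 22 (IRE1) for DTT, 8 to 13 and 11 to 20 for Δopi3, 8 to 15 and 12 to 20 for choline, 2 to 12 between strains with DTT, 1 to 7 between Δopi3 strains, 0 to 6 in the DTT, 0 to 5 in the Δopi3 and 0 to 2 in the choline interaction. Signs turned within −0.051 to 0.039 for ECM22 and Δopi3 in IRE1 cells, −0.035 to 0.056 for HMG2 and Δopi3 in ΔLD cells, and −0.014 to 0.121 for HMG2 and choline in ΔLD cells. The number of arrays, 3 in a group, limits the precision.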

Other observations

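LAM4, a sterol transfer protein of contact sites between the ER and the plasma membrane, was 1 of the 49 other genes and was singled out after its values were seen. It was lower in ΔLD than in IRE1 cells in all 4 states. The difference was −1.11 in Δopi3 cells with choline (adjusted p 4.87e-06), −0.89 in Δopi3 cells (adjusted p 1.61e-05), −0.58 with DTT (adjusted p 0.000607) and −1.32 untreated (2.49-fold, SE 0.11, adjusted p 1.85e-06). It was the only gene of the 25 for sterol transport called between the untreated strains. In the gene order of the reference table LAM4 lies 2 positions from IRE1, with SAE3 between them. The IRE1 gene itself was labelled as deleted in both kinds of cell, and the part of this location in the result was not tested.

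DAN4 was lower in ΔLD than in IRE1 cells with DTT at −1.44 (adjusted p 8.63e-07), and its DTT effect was lower in ΔLD cells at −1.38 (adjusted p 0.000251). UPC2, whose product is known to activate this family, had a DTT effect of 0.13 in ΔLD cells and −0.36 in IRE1 cells. That difference, 0.49, had the opposite sign to that of DAN4 and was not called (adjusted p 0.0763, and 0.0422 with the slide as a block). A relation between the 2 genes was not tested.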
